A study of Mus musculus with 8 samples.

Results

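The regions described here carried 5-hydroxymethylcytosine (5hmC) peaks on every sampled day of reprogramming but had none called in the starting or the end cells. Peaks of 8 lists, 1 per library, were merged into 222732 union regions wherever they overlapped or touched. A region was kept when all 6 intermediate lists had a peak in it and neither the induced pluripotent stem cell (iPSC) list nor the mouse embryonic fibroblast (MEF) list did. The rule kept 6075 regions, which is 2.73% of all union regions. They are called persistent intermediate-only regions below. They were chosen by the presence and absence of peaks in these same lists, so their peak scores are a description of what was chosen and no test was made on them.

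The intermediates were sampled at D1, D3 and D5 (read as days) of OySyNyK or OSNK reprogramming. The labels do not spell out the names. As background, OSNK stands for Oct4, Sox2, Nanog and Klf4, the factors that restart the pluripotency programme. In OySyNyK all of these except Klf4 are joined to a transactivation domain of YAP, a transcriptional coactivator. The iPSC library is titled with the OySyNyK factors, so OSNK has no end-cell list of its own. No day between D5 and the iPSCs was sampled. The fibroblasts are labelled OG2-MEFs, and per the labels' protocols the medium for making iPSCs contained vitamin C and the cytokine LIF. iPSCs were kept on mitomycin C-treated MEF feeder cells, so DNA of feeder fibroblasts could be part of that library. The labelled cell types were not checked against marker genes, since genes were not assigned to peaks. Each of the 8 groups had 1 library and no replicate, so no comparison between groups carries a p-value and no spread between cultures can be given. The measurement is of bulk DNA, and more cells with the mark cannot be told apart from more mark per cell.

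5hmC is made from 5-methylcytosine by the TET enzymes, which are helped by vitamin C. It is a step on the way to unmethylated cytosine, either by dilution at cell division or by further oxidation and base excision repair. It is best known from enhancers and from the bodies of transcribed genes. In these libraries 5hmC was glucosylated with an azide-bearing sugar, biotinylated and captured, so a peak marks a stretch of captured DNA.

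The lists differed in length, which sets what absence means. Intermediate lists held between 70592 peaks (OySyNyK D5) and 116302 peaks (OSNK D1), while iPSC held 54938 and MEF 65776. The iPSC list stood apart on some chromosomes, with few peaks on 13, 16, 18 and X and many on 12, and values without these chromosomes are given with the chromosome shares. The median peak score in the intermediate lists lay between 75.8 and 105, and it was 71.0 in iPSC and 103 in MEF. The score is the authors' value for each peak and, in MACS output, grows as the p-value of the peak gets smaller. It depends on sequencing depth, which is unknown here, and the lowest score in every list was 50. A missing peak is therefore a peak not called, not a measured absence of 5hmC. Coordinates are those of the lists, counted from 1, in a mouse assembly other than GRCm38.

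Intermediate-only regions were mostly found in few lists, and the persistent ones were the far end of that series. In neither end state were 119162 regions, 53.5% of all union regions. Of these, 54618 were found in 1 intermediate list, 25768 in 2, 15325 in 3, 9831 in 4, 7545 in 5 and 6075 in all 6. The last made up 5.10% of intermediate-only regions (exact 95% interval 4.97 to 5.22, counting error only). Seen from the other side, 23258 regions, 10.4% of all union regions, had a peak in all 6 intermediate lists. Of these, 6075 were in neither end state, 2274 were also in iPSC only, 9159 were also in MEF only and 5750 were also in both. The persistent intermediate-only regions were thus 26.1% of all regions present on every sampled day with both methods (95% interval 25.6 to 26.7).

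**Figure D1:**
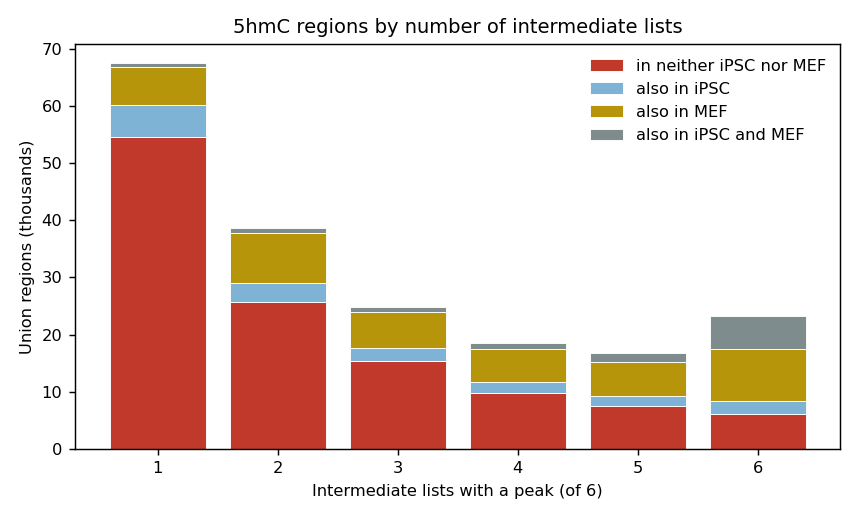
Union regions (vertical axis, in units of 1000) by the number of intermediate lists, of 6, with a peak in the region, coloured by whether iPSC or MEF also had a peak. Regions in neither end state fall from 54618 in 1 list to 6075 in all 6, where the 9159 regions also in MEF but not in iPSC are the largest class.

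Of the 6 intermediate lists, the count rested most on the shortest, OySyNyK D5, and the absence required in MEF moved it more. Of the 7545 intermediate-only regions found in 5 lists, 3746 lacked a peak in OySyNyK D5 only, 1313 in OSNK D1, 960 in OySyNyK D1, 639 in OSNK D5, 475 in OySyNyK D3 and 412 in OSNK D3. Without requiring OySyNyK D5 the rule kept 9821 regions, and without requiring absence in MEF it kept 15234. When every list was shortened to its 54938 highest scores, the length of the iPSC list, it kept 2690, and with a score of at least 100 in every list it kept 2548. Of the 6075 persistent regions, 2325 and 1020 were found again in these last settings.

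The edge of the rule was a matter of few bases or of low scores. The regions chr7:88917924-88918956 and chr9:119342715-119343941 were kept although an iPSC peak began or ended 1 bp away, and chr1:133076804-133078114 was kept with an iPSC peak at 2 bp. Just outside lay chr9:66560105-66561491 and chr2:171464049-171464865, left out by 1 iPSC peak with a score of 50.01 and 50.02, and chr12:33885774-33887151, left out by 1 MEF peak with a score of 50.02. Of the 10272 regions in all 6 intermediates with exactly 1 iPSC or MEF peak, that peak scored under 60 in 1150.

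The peaks of the 6 lists mostly fell on the same bases. In 5619 of the 6075 regions at least 1 base was covered in all 6 lists at once, which is 92.5% (95% interval 91.8 to 93.1). In these regions the common stretch had a median of 514 bp, with quartiles of 420 and 637 bp and a longest of 2376 bp. In the other 456 regions the lists' peaks were linked only through one another. A single peak in each list made up the region in 4533 cases, 74.6% of all. The regions were 1252 bp wide in the median, with quartiles of 934 and 1720 bp and a range of 443 to 6706 bp. Regions in neither end state and in 1 to 5 intermediate lists had a median width of 665 bp. Width grows as more lists are merged, and it was 536, 709, 832, 932 and 1056 bp for regions in 1, 2, 3, 4 and 5 lists.

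In OySyNyK, the best peak in a region had a median score of 131 at D1, 131 at D3 and 85.4 at D5, and in OSNK of 143, 149 and 125. The medians of the whole lists were 95.8, 84.2 and 75.8 in OySyNyK and 105, 91.4 and 81.3 in OSNK. The best peak was above the median of its own list in 70.5%, 80.4% and 59.9% of the regions over the days of OySyNyK, and in 67.6%, 79.4% and 80.0% over those of OSNK. In all 6 lists at once this held for 1623 of the 6075 regions (26.7%). A region with several peaks in a list is represented here by the best one, and the rule asks for a peak in all 6 lists. These shares are therefore partly set by the choice of regions and by the way they were counted. In OySyNyK D1 the median score was 60.3, 67.0, 72.9, 80.1 and 96.4 for intermediate-only regions in 1, 2, 3, 4 and 5 lists. The weakest link was often near the calling limit: the lowest of a region's 6 scores had a median of 67.1, and it was under 60 in 2042 regions (33.6%). In 1026 regions (16.9%) all 6 scores reached 100.

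The regions that also had an end-state peak show what the same lists gave elsewhere. Regions in all 6 intermediates and in MEF only had median scores of 238, 155 and 98.1 over the days of OySyNyK and of 303, 182 and 132 over those of OSNK. Regions in all 6 and in iPSC only had 154, 173 and 126 with OySyNyK and 134, 162 and 158 with OSNK. The medians of the MEF-bearing regions were thus highest at D1 and lower on each later day with both methods. Region by region, such a fall with both methods was found in 3839 of the 9159 regions in all 6 and MEF only (41.9%). The persistent intermediate-only regions had similar medians at D1 and D3 and a lower one at D5, where the drop was deeper with OySyNyK. A MEF peak was part of how these classes were defined, so their D1 levels are not independent of it.

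**Figure D2:**
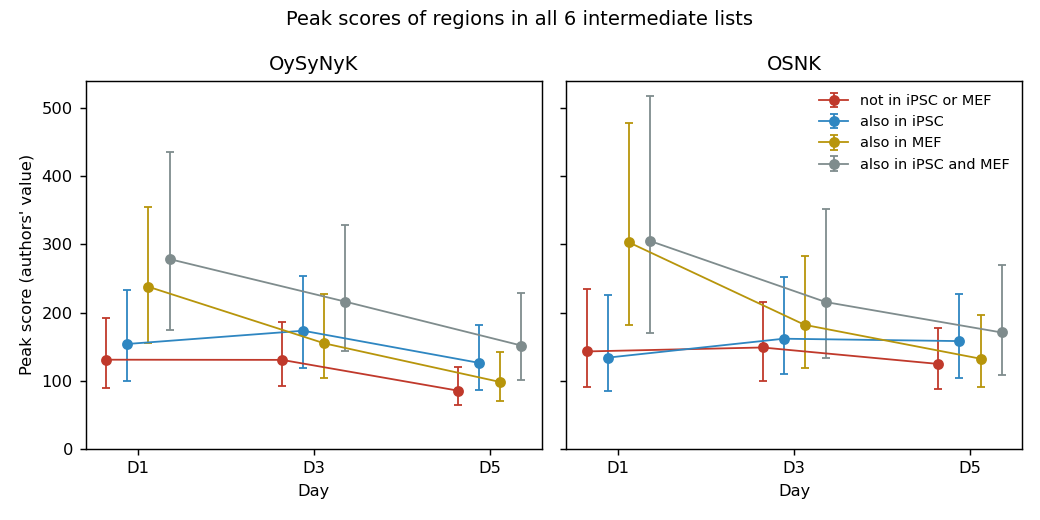
Peak score (vertical axis, the authors' value) by day for OySyNyK (left) and OSNK (right), for regions with a peak in all 6 intermediate lists, with medians over regions as points and quartiles as bars. The regions in neither iPSC nor MEF stay at medians of 131 and 131 at D1 and D3 of OySyNyK and 143 and 149 of OSNK, while regions also in MEF have 238 and 155, and 303 and 182.

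Followed region by region, the score at D3 was about as often above as below that at D1. With OySyNyK it was higher at D3 in 2995 of 6075 regions (49.3%) and with OSNK in 2965 (48.8%). The same shares were 36.5% and 31.2% over all union regions with a peak on both days. They were 46.3% and 38.2% in intermediate-only regions in 1 to 5 lists. In regions in all 6 lists and iPSC only they were 57.9% and 60.1%, and in those in all 6 and MEF only 22.0% and 20.7%. A score at D3 at least 2 times that at D1 was found in 519 regions with OySyNyK, 8.54%, against 5.50% of all regions in both lists. With OSNK it was found in 660, 10.9%, against 5.33%. A score at D3 at most 1/2 of that at D1 was found in 548 regions with OySyNyK, 9.02%, against 19.0% of all regions in both lists, and in 715 with OSNK, 11.8%, against 26.4%. The background holds the many MEF-bearing regions, whose median scores were highest at D1. Classes without a MEF peak were closer: a score at D3 at most 1/2 of that at D1 was found in 8.74% (OySyNyK) and 15.97% (OSNK) of intermediate-only regions in 1 to 5 lists, and in 5.89% and 5.06% of regions in all 6 lists and iPSC only. In that iPSC class a score at D3 at least 2 times that at D1 was more frequent than in the persistent regions, at 12.5% and 17.0%. No score is under 50, so only a score of at least 100 can fall to 1/2, here and in the comparisons below. The D1 medians were 131 and 143 in the persistent regions and 238 and 303 in regions in all 6 lists and MEF only. The part of this limit in the shares was not tested.

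Between D1 and D5 more of the persistent regions had the lower score at D5: it was the higher one in 1590 regions (26.2%) with OySyNyK and in 2516 (41.4%) with OSNK. With OySyNyK the score at D5 was at most 1/2 of that at D1 in 1830 regions, 30.1%, against 34.7% of all regions in both lists. The OySyNyK score at D5 was at least 2 times that at D1 in 210, 3.46%, against 4.15%. Both OySyNyK shares were near the background. With OSNK the score at D5 was at most 1/2 of that at D1 in 1323 regions, 21.8%, against 35.5% of all regions in both lists, and at least 2 times as high in 636, 10.47%, against 5.54%. With OSNK again, the lower class held 21.6% of intermediate-only regions in 1 to 5 lists and 12.4% of regions in all 6 lists and iPSC only, and the higher class held 5.21% and 18.7% of them. The list medians themselves were lower at D5 than at D1 with both methods.

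With both methods together, D3 was the highest of the 3 days in 1005 of the persistent regions, 16.5%, against 10.7% of the 23258 regions in all 6 lists. Among the regions also in iPSC only it was 433 of 2274, 19.0%, and among those also in MEF only 563 of 9159, 6.15%, so a highest score at D3 was not particular to the persistent regions. D1 was the highest with both methods in 1616, 26.6%, against 46.3%, with 18.2% in the iPSC-only class and 63.5% in the MEF-only class. D5 was the highest with both methods in 216, 3.56%, against 3.03%. The remaining regions had their highest day at different times in the 2 methods or, in a few, tied scores. Taking all 6 lists together, OSNK D1 held the highest score in 1879 regions, OSNK D3 in 1274, OySyNyK D1 in 1000, OySyNyK D3 in 996, OSNK D5 in 743 and OySyNyK D5 in 183. OSNK D1 thus held it in 30.9% of the persistent regions. It did so in 57.0% of regions also in MEF only, 42.8% of those also in both and 17.6% of those also in iPSC only. OySyNyK D5 held it in 3.01% of the persistent regions and in 1.45%, 5.65% and 8.09% of these classes.

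The methods differed most at D5. OySyNyK had the higher score in 2602 regions at D1 (42.8%), 2534 at D3 (41.7%) and 1490 at D5 (24.5%). Over all regions with a peak in both lists of a day, these shares were 34.8%, 43.8% and 37.0%. At D5 the share was 28.9% in regions in all 6 lists and MEF only and 36.3% in those in all 6 and iPSC only. It was 33.4% over all other regions in all 6 lists and 39.4% in intermediate-only regions in 1 to 5 lists. A score with OySyNyK at most 1/2 of that with OSNK was found in 985 regions at D1, 16.2%, against 15.9% of all regions in both lists, in 945 at D3, 15.6%, against 13.6%, and in 1460 at D5, 24.0%, against 15.4%. A score with OySyNyK at least 2 times that with OSNK was found in 487 regions at D1, 8.02%, against 4.43%, in 430 at D3, 7.08%, against 7.70%, and in 138 at D5, 2.27%, against 5.13%. At D1 this share was 15.0% in regions in all 6 lists and iPSC only and 3.29% in those in all 6 and MEF only. OySyNyK D5 was the shortest intermediate list and had the lowest median score of them. The part of list length in the D5 values was not tested. Of the other regions in all 6 lists, 18.2% had a D5 score with OySyNyK at most 1/2 of that with OSNK.

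Scores of the persistent regions went together most between neighbouring days of 1 method and between the D1 lists. Over the 6075 regions, Spearman's rho was 0.57 between OSNK D3 and OSNK D5, 0.53 between OSNK D1 and OSNK D3, 0.47 between OySyNyK D1 and OySyNyK D3 and 0.46 between OySyNyK D3 and OySyNyK D5 (Pearson's r 0.63, 0.56, 0.52 and 0.56). Between the methods on the same day it was 0.48 at D1, 0.37 at D3 and 0.36 at D5 (Pearson's r 0.55, 0.42 and 0.44). It was lowest, 0.05, between OySyNyK D5 and OSNK D1 (Pearson's r 0.10). These are descriptions over regions of the same genome, which share their sequence and mappability between lists and are not replicates.

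The regions with the highest lowest score are named first, since they were far from the calling limit in every list. The first was chr18:75986669-75989762, 3094 bp wide, with 1616 bp covered in all 6 lists. It scored 1003, 405 and 484 over the days of OySyNyK, in the order D1, D3, D5, and 626, 702 and 527 over those of OSNK. Its nearest iPSC peak was 2392 bp and its nearest MEF peak 12749 bp away.

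The next was chr9:70114764-70116924, 2161 bp wide, of which 2009 bp were covered in all 6 lists. Its scores were 493, 424 and 387 with OySyNyK and 538, 980 and 654 with OSNK. It lay among end-state peaks, with an iPSC peak at 128 bp and a MEF peak at 108 bp. The third was chr16:91801102-91803029, 1928 bp wide, scored 598, 574 and 381 with OySyNyK and 836, 545 and 407 with OSNK. Here the nearest iPSC and MEF peaks were 3849 and 3414 bp away.

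**Figure D3:**
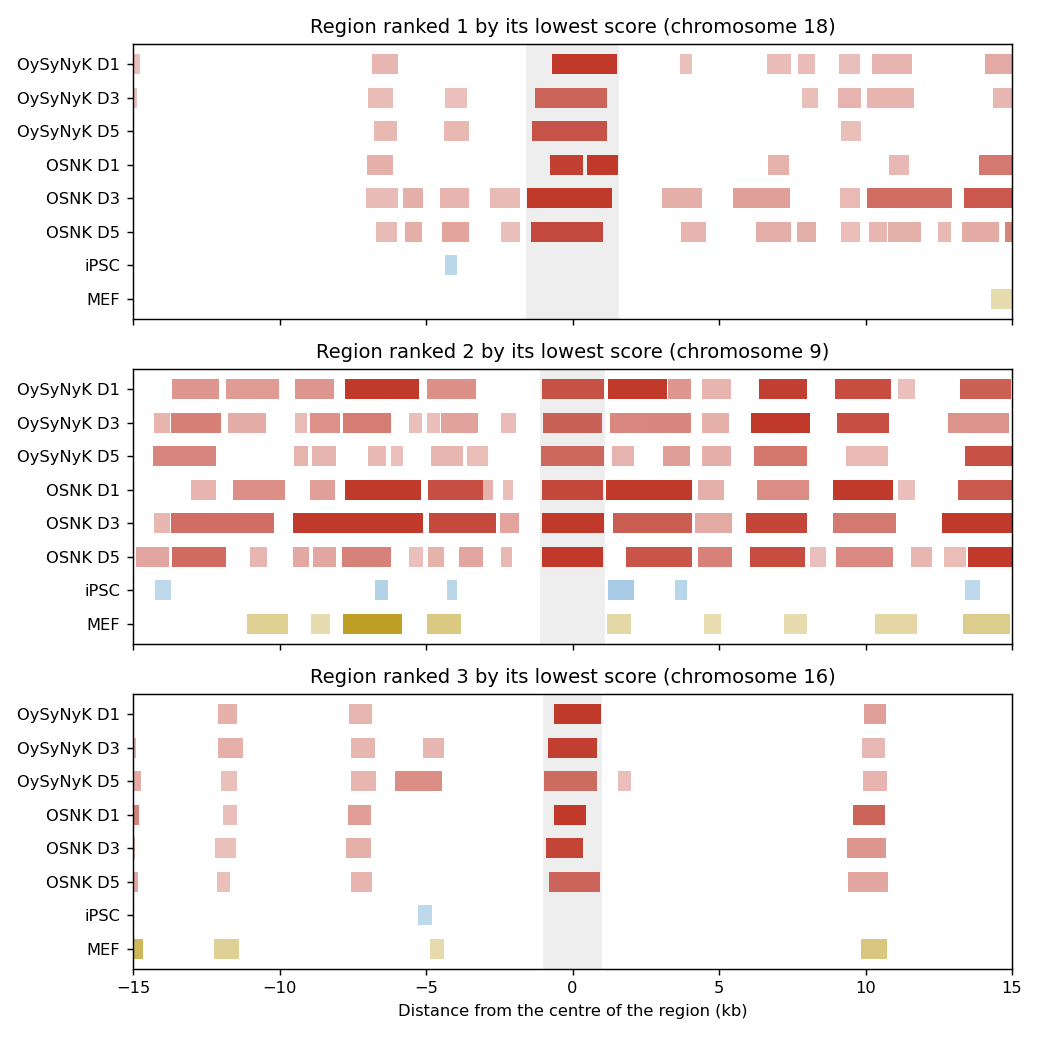
Peaks of the 8 lists (rows) round the 3 regions with the highest lowest score, as distance in kb from the region's centre, with peaks as bars, darker with a higher score (full colour from 600), and the region in grey. In each, all 6 intermediate rows have a peak in the grey stretch and the iPSC and MEF rows have none, with end-state peaks 108 to 3849 bp from the 2nd and 3rd regions.

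The other 7 strongest regions had lowest scores of 281 to 319. They were chr8:129961732-129965886, chr10:77834210-77836374, chr2:72244622-72248593, chr8:12731474-12734576, chr6:91492251-91493979, chr5:104241364-104246068 and chr9:69331478-69337081. In 5 of these 7 the lowest of the 6 scores was that of OySyNyK D5. On chr8:12731474-12734576 it was that of OySyNyK D1, 307, and on chr6:91492251-91493979 that of OSNK D1, 299. The region on chromosome 5 was kept by 2 bp, the distance to its nearest iPSC peak. The one on chromosome 6 lay 147162 bp from an iPSC peak and 1808 bp from a MEF peak.

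The 5 widest regions each held several peaks in at least 1 list. The widest was chr9:48274952-48281657, 6706 bp, with 3, 5 and 1 peaks over the days of OySyNyK and 1, 3 and 3 over those of OSNK, and with 405 bp in common to all lists. Its scores were 875, 280 and 156 with OySyNyK and 780, 653 and 668 with OSNK. The next were chr4:59469970-59475854 (5885 bp), chr9:69331478-69337081 (5604 bp, also among the strongest), chr7:139957360-139962843 (5484 bp) and chr17:27747606-27752994 (5389 bp). The last had no base covered in all 6 lists. It scored 53.2, 345 and 203 with OySyNyK and 67.2, 667 and 444 with OSNK, so both D1 values were near the calling limit and both D3 values were the highest.

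The median distance was 7856 bp to the nearest iPSC peak and 4969 bp to the nearest MEF peak, with quartiles of 2618 and 20917 bp to iPSC and 1650 and 12931 bp to MEF. With a score of at least 100 required in all lists the median to iPSC was 30368 bp, and with peaks within 1 kb merged the median to MEF was 7528 bp. For intermediate-only regions in 1 to 5 lists the medians were 12927 bp to iPSC and 7793 bp to MEF. The distances were smaller the more lists a region was in: to MEF the medians were 8829, 7796, 7000, 6202 and 5831 bp for 1, 2, 3, 4 and 5 lists, and to iPSC they were 14823, 13205, 11604, 9812 and 9067 bp. A MEF peak was the nearer one for 3764 of the 6075 regions (62.0%) and an iPSC peak for 2310 (38.0%). Among regions in 1 to 5 lists these shares were 63.3% and 36.7%, and the MEF list was the longer of the 2. Persistent regions were also wider, and the part of width in these distances was not tested. Within 10 kb, 5109 persistent regions (84.1%) had an iPSC or a MEF peak, against 80649 of 113087 (71.3%) of the regions in 1 to 5 lists. Within 1 kb it was 1505 (24.8%), against 20011 (17.7%).

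**Figure D4:**
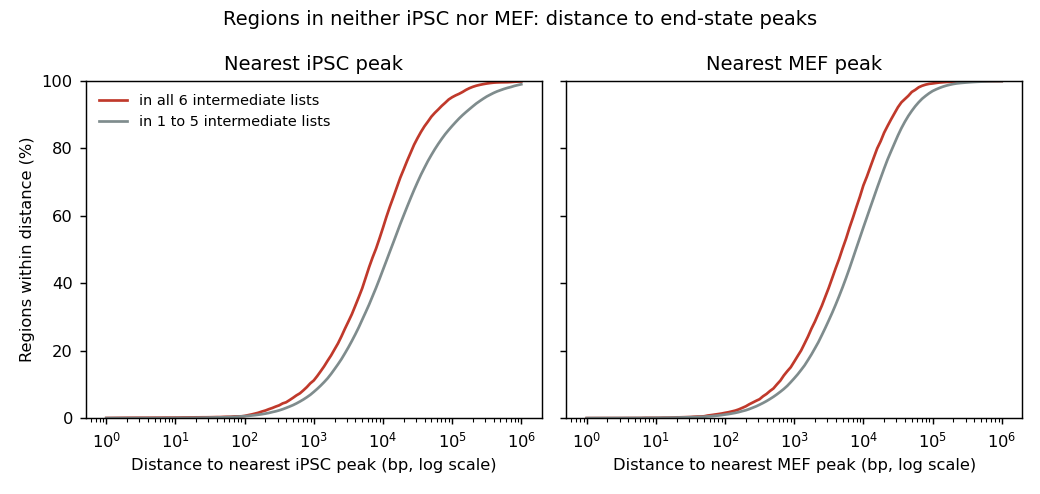
Share of regions (vertical axis, %) with an iPSC peak (left) or a MEF peak (right) within a given distance (horizontal axis, bp, log scale), for intermediate-only regions in all 6 lists and in 1 to 5 lists. At 10 kb the shares are 56.4% and 44.0% for iPSC, and 69.0% and 56.6% for MEF.

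The surroundings were rich in peaks in every list. Of the 10 kb on each side of a persistent region, peaks covered 4.02% on average in iPSC and 7.48% in MEF. The OySyNyK lists of the 3 days covered 10.9%, 11.7% and 9.12% and those of OSNK 12.04%, 15.5% and 11.6%. For intermediate-only regions in 1 to 5 lists the covers were 2.78% in iPSC, 5.02% in MEF, 6.79%, 6.78% and 5.16% over the days of OySyNyK and 8.07%, 9.48% and 6.87% over those of OSNK. The lists covered 1.60% (iPSC), 2.45% (MEF) and between 2.24% and 3.83% (intermediates) of the sequence spanned by peaks. OSNK D3 covered the most, 3.83%, against 2.90% for OySyNyK D3. Its peaks were also the broadest, with a median width of 911 bp against 650 to 703 bp in the other intermediate lists. Flank cover was thus higher near persistent regions than near the others in all 8 lists, end states included. It rose with the number of lists a region was in, and was not particular to the persistent regions. In iPSC and MEF it went from 2.55% and 4.54% for regions in 1 list to 3.55% and 6.37% for regions in 5 lists. For regions in 5 lists it was 9.26% in OySyNyK D1 and 10.5% in OSNK D1.

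A few regions lay far from any end-state peak. The farthest was chrX:106315656-106316926, with the nearest iPSC peak 2898814 bp and the nearest MEF peak 2491368 bp away. It was also weak, with scores of 100, 54.3 and 76.9 with OySyNyK and 76.8, 69.7 and 70.8 with OSNK, and no base was covered in all 6 lists. The next, chr3:111188387-111189175, was 434548 bp from MEF peaks and 1271336 bp from iPSC peaks, and it scored 424, 147 and 94.4 with OySyNyK and 407, 131 and 191 with OSNK. Both D1 values stood above the later ones there. The third, chr1:142077152-142077826, was 350584 bp from a MEF peak and scored between 53.9 and 141. The other 2 of the 5 farthest lay side by side on chromosome 18, at chr18:22515752-22516787 and chr18:22539265-22540190, 263708 and 240305 bp from a MEF peak and over 1 Mb from an iPSC peak. At each of these 2, OSNK D1 had the highest score of the 6, 251 and 457, followed among the D1 lists by OySyNyK with 231 and 259.

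The persistent regions were spread over all 20 chromosomes with peaks and uneven within them. Of 2582 windows of 1 Mb spanned by peaks, 1087 (42.1%) held none, and 89 windows held 10 or more and together 1073 of the regions (17.7%). The median distance to the nearest other persistent region was 41340 bp, and 1250 regions (20.6%) had another within 10 kb. The last 10% of the spanned length of chromosomes held 14.6% of them, against 12.5% of intermediate-only regions in 1 to 5 lists and 14.0% of all union regions. The first 10% held 6.73%, against 8.17% and 7.42%.

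The window with the most was on chromosome 18, from 65000001 to 66000000, with 26 persistent regions among 271 union regions. It held 151, 172 and 141 peaks over the days of OySyNyK, 152, 148 and 176 over those of OSNK, 20 in iPSC and 85 in MEF. The mean window held 2.35 persistent regions, between 27.3 and 45.0 peaks of an intermediate list, 21.3 iPSC peaks and 25.5 MEF peaks. The window thus had several times the mean number of peaks in the intermediates and in MEF and about the mean number in iPSC. These means are over all chromosomes. Chromosome 18 held only 1110 iPSC peaks over a spanned 87.5 Mb, so 20 in 1 Mb were above the average of that chromosome. The next windows were on chromosome 1 from 92000001 (18 regions), chromosome 10 from 69000001 (18) and from 67000001 (17), and chromosome 19 from 53000001 (17). In these, iPSC had 47, 66, 48 and 92 peaks and MEF had 141, 65, 81 and 78.

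Chromosomes differed in their share of persistent regions. Chromosome 16 held 4.51% of them, against 3.48% of all union regions, chromosome 13 held 5.89% against 4.71%, chromosome 18 held 4.61% against 3.69% and chromosome 17 held 5.37% against 4.41%. Chromosome 12 held 2.98% against 4.87%, and X held 13 regions, 0.214%, against 0.810%. The union regions include those found in iPSC only, so this baseline moves with the iPSC list. Of the intermediate-only regions, the persistent ones were 5.57%, 5.44% and 5.63% on chromosomes 16, 13 and 18, against 5.10% over all chromosomes. That share was 6.51% on chromosome 17, 6.04% on 11, 3.87% on 12 and 1.08% on X. The iPSC list departs from the other lists on several of these chromosomes: it had 0.257, 0.253 and 0.438 peaks for each MEF peak on chromosomes 16, 13 and 18, 0.207 on X and 1.504 on chromosome 12, against 0.835 over all chromosomes. Of the regions in all 6 intermediates, 85.3%, 87.7% and 81.3% had no iPSC peak on chromosomes 16, 13 and 18 and 45.9% had none on chromosome 12, against 65.5% over all chromosomes. On X it was 83.3% of 42 regions, while the share of persistent regions on X was low. The share of them without a MEF peak was 35.1%, 36.7%, 38.3% and 32.1% on these chromosomes, against 35.9% over all chromosomes, and it lay between 32.1% and 38.5% on all 20. On chromosome 17 the iPSC list had 1.04 peaks for each MEF peak and 61.3% of regions in all 6 lists lacked an iPSC peak. Without chromosomes 12, 13, 16, 18 and X, 4969 persistent regions were left, with a median width of 1266 bp and median distances of 6826 bp to iPSC and 4995 bp to MEF.

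**Figure D5:**
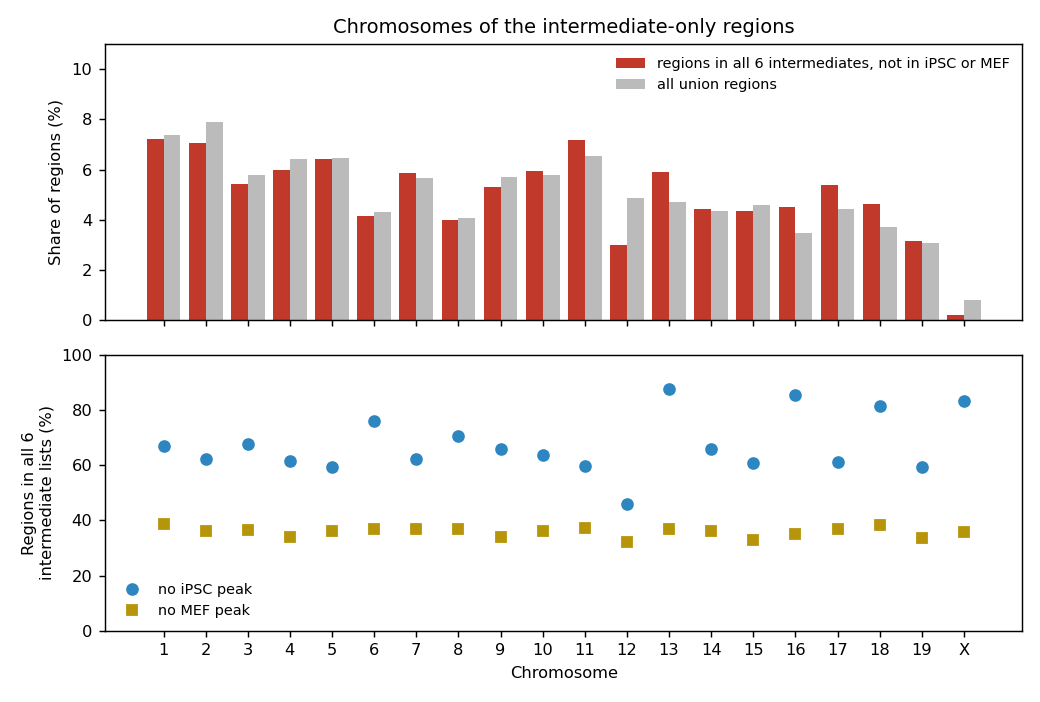
Share of persistent intermediate-only regions and of all union regions on each chromosome (top, %) and, of the regions in all 6 intermediate lists, the share with no iPSC peak and with no MEF peak (bottom, %). The first of these ranges from 45.9% on chromosome 12 to 87.7% on chromosome 13, the second from 32.1% to 38.5%.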

How the data were processed

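5hmC-captured genomic DNA was sequenced from 8 mouse samples, grouped by title, with 1 library in each group. The aligner Bowtie and the peak caller MACS appear in the submitters' processing notes. For both tools the version, settings and any control library are not stated in the labels. The notes name the human builds hg18 and NCBI36, but the lists hold mouse chromosomes 1 to 19 and X, with peaks beyond the last GRCm38 gene on 10 of 20. The deposited value is a score per peak, called per library by the authors. Depth per sample is unknown, so intervals cover counting error along the genome only.

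Union regions, membership and distances were computed in Python (3.11.15) using pandas (2.3.3), scipy (1.17.1) and numpy (2.4.6), checked with bedtools 2.31.1 (the same 222732 and 6075 regions, and the same 6075 MEF distances) and tested on simulated data. Figures used matplotlib 3.10.9. Distance is the number of bases between region and peak. Named were the 10 regions with the highest lowest score, the 5 widest, the 5 farthest from end-state peaks, the 5 fullest windows of 1 Mb and 3 on each side of the rule. The rule and lists were chosen with earlier results of these data known. Alternatives were stricter scores, equal numbers of peaks, 500-bp peaks, a common base, merging within 1 kb, chromosomes left out, and each list not required. Sequences and genes were not used here.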

Additional observations from a re-analysis of the deposited data

Results flagged for a closer look

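The median score over the 6075 persistent intermediate-only regions was lower by 0.28 at D3 than at D1 with OySyNyK (a difference of -0.28) and higher by 5.81 with OSNK. The OySyNyK D3 median lay within the 95% interval of the D1 median, 128 to 133. The OSNK D3 median, 149, lay above that of the OSNK D1 median, 140 to 146. These intervals count regions of 1 library and do not measure a difference between days. Region by region the methods did not differ in direction: the median ratio of D3 to D1 was 0.991 with OySyNyK and 0.982 with OSNK. With OSNK the median at D3 was below that at D1 with equal numbers of peaks (225 at D1, 201 at D3), with a score of at least 100 in all lists (252.5 and 247) and with merging within 1 kb (141 and 138). It was also lower at D3 without requiring absence in MEF (226 and 167) and without requiring OySyNyK D5 (141 and 133). Each method had 1 library per day, and the difference was not tested.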

How the results depend on the processing

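15 alternatives were run. The number of regions stayed within 1.5 times 6075 except for 2548 with a score of at least 100 in all lists, 1031 with that limit in the intermediates only, 2690 with equal numbers of peaks, 9821 without requiring OySyNyK D5 and 15234 without requiring absence in MEF. Medians were set against the order-statistic 95% interval of the median. Width was 1562, 1445 and 1405 bp in the first 3 of these settings, 731 bp with 500-bp peaks, 1198 bp with a common base and 1754 bp with merging within 1 kb. It was 1222, 1186, 1205, 1220 and 1227 bp without requiring OySyNyK D1, OySyNyK D5, OSNK D1, OSNK D3 and OSNK D5, and 1455 and 1344 bp without requiring absence in MEF and in iPSC. Distance to iPSC was 30368 bp with a score of at least 100 in all lists and 6940 bp with that limit in the intermediates only. The former setting leaves fewer iPSC peaks and also changes which regions are kept, and the part of each was not tested. It was 7187 bp with equal numbers, 7312 bp with 500-bp peaks, 10641 bp with merging, 6826 bp without the 5 chromosomes and 8584 bp without requiring OySyNyK D5. Distance to MEF was 7276 and 4055 bp with the 2 score limits, 4647 bp with 500-bp peaks, 7528 bp with merging and 5291 bp without requiring OySyNyK D5. The lowest score had a median of 127 and 123 with the 2 score limits, 93.1 with equal numbers, 68.0 with a common base, 65.5 with merging and 71.3 without requiring OySyNyK D5, and of 73.5 and 69.4 without requiring absence in MEF and in iPSC. Apart from shifts set by the rule itself, the causes were not tested. Median scores were higher in each of the 6 lists by up to 1.77 times with a score of at least 100 in all lists, 1.68 times with that limit in the intermediates only, 1.58 times without requiring absence in MEF and 1.57 times with equal numbers of peaks. Of the chromosome shares, 17 of 20 with equal numbers and 15 of 20 with a score of at least 100 stayed within their 95% intervals. No paired analysis was possible because no result here comes from a test; the methods were set side by side on the same day, with 1 library for each method and day. With 1 library per group and unknown depth, a missing peak cannot be told from weak enrichment.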
